A study of Mus musculus with 16 samples.

Results

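Fatty acid oxidation was described through 37 genes of mitochondrial and peroxisomal fatty acid breakdown and its control, taken as every probe of the non-normalized table whose annotated gene symbol is one of them. Of the 37 genes, 35 had at least 1 probe, with 65 probes in all of the 25697 on the array. *Hadha* and *Acsl1* had no matched probe and were not analysed here. After a filter on detection, 33 genes with 51 probes were tested, among 7302 genes tested in all. The other 2 genes, *Cpt1a* and *Acot2*, had 4 probes between them, and none was detected on any array, so their levels could not be compared.

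The arrays measured total liver RNA of 4-week-old male mice on the inbred FVB/NJ background, in a line that carries a GFP transgene expressed in red blood cells in both genotypes. *Trim28MommeD9/+* mice carry 1 copy of a chemically induced splice-site mutation in *Trim28*, which encodes a corepressor of transcription, in all cells of the body, and *Trim28+/+* mice are their wild-type littermates. The labels name no treatment. The labels assign 7 arrays to *Trim28MommeD9/+* and 9 to *Trim28+/+*, while the methods describe 4 mice per genotype with technical replicates, so several arrays share a mouse and the p-values, taken over arrays, come out too small.

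A fatty acid is activated to its acyl-CoA, carried into the mitochondrion by the carnitine shuttle, and shortened in repeated rounds of oxidation, hydration, a second oxidation and thiolysis. Electrons pass through the electron-transferring flavoprotein to the respiratory chain, and in the liver much of the acetyl-CoA becomes ketone bodies. Peroxisomes shorten very long and branched chains and dicarboxylic acids by a parallel set of enzymes. Many of these genes are targets of the fatty acid sensing nuclear receptor PPARA, which binds DNA with RXR and is active in suckling and fasting.

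*Trim28* itself, which checks the labels, was at 8.62 ± 0.07 (SD, n = 7 arrays) on the normalized log2 scale in *Trim28MommeD9/+* and at 9.06 ± 0.23 (SD, n = 9 arrays) in *Trim28+/+*. This is a log2 fold change of -0.44 (standard error 0.09) with an adjusted p = 0.00277 from limma. The mean raw intensity was 205 to 270 on *Trim28MommeD9/+* arrays and 273 to 344 on *Trim28+/+* arrays. By the constant that the authors subtracted, the arrays form a low-background set of 8, which holds all 7 *Trim28MommeD9/+* arrays and *Trim28+/+* replicate 1, and a high-background set of the other 8 *Trim28+/+* arrays. Replicate 1 still differed from the other 7 arrays of the low-background set. Its constant was 42.7 beside 37.6 to 40.3, and its mean raw intensity 317 beside 205 to 270. It had the most probes detected of the 16 arrays, 10262, beside 9186 to 9572 on *Trim28MommeD9/+* arrays. Apart from *Trim28+/+* replicate 1, genotype and background cannot be told apart. The level or position of this array, or the fold against it, is therefore given beside members, member probes and named related genes that passed. Of the cell type markers below, only *Hnf4a* has it, and for the others genotype and background are not separated. *Trim28+/+* replicate 1 had the highest *Trim28* of the 16 arrays, at 9.39. The array labelled *Trim28+/+* replicate 7 had a *Trim28* level of 8.63, within the *Trim28MommeD9/+* range of 8.53 to 8.76. Without it 2 members were higher and 6 lower, the call of *Acads* being lost. Of the hepatocyte markers, 7 of 7 were detected, with a summed level of 8.879e+04 to 9.608e+04 on *Trim28MommeD9/+* arrays and 9.245e+04 to 1.008e+05 on *Trim28+/+* arrays, and 3 of them were lower (*Hnf4a*, *Cyp2e1* and *Alb*, the last on a dim probe). Of 5 Kupffer cell markers tested, 3 were higher (*Clec4f*, *Vsig4*, *C1qa*), with a summed level of 1335 to 1676 against 1093 to 1323 and *Cd5l* not detected, while *Adgre1* had a fold of -0.30 (limma adjusted p = 0.0721). Of 5 stellate cell markers 1 was lower, *Col3a1*, detected on 0 of 7 *Trim28MommeD9/+* and 8 of 9 *Trim28+/+* arrays, with a summed level of 4449 to 5249 against 4748 to 5554. Of 4 sinusoidal endothelial markers tested 1 was higher, *Pecam1* (summed level 3710 to 4128 against 3693 to 4386, with *Kdr* not detected), and of 2 markers of exocrine pancreas tested 1 was lower, *Amy2a5*, also detected on 0 of 7 and 8 of 9 arrays (1055 to 1302 against 897.8 to 1445, with *Cpa1* not detected). None of 3 erythroid markers passed (1.59e+04 to 2.482e+04 against 1.703e+04 to 2.415e+04). No marker of cholangiocytes, lymphocytes or adipocytes was detected on 3 or more arrays. The part of these differences in the results on fatty acid oxidation was not tested, and in whole liver fewer cells of a type and less RNA per cell cannot be told apart.

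Most of the fatty acid oxidation genes lay close to the same level in both genotypes. Of the 33 tested, 24 had a log2 fold change (*Trim28MommeD9/+* minus *Trim28+/+*) between -0.2 and 0.2, and their median was 0.04 beside 0.05 over all genes tested. At an adjusted p under 0.05 from limma, 3 members were higher (9.09%, beside 10.4% of all genes) and 6 lower (18.2%, beside 11.4% of all genes), in all 9 of 33 (27.3%, beside 21.8%). The remaining 24 did not pass. With presumptive technical pairs of arrays, taken from the data since the files name no mouse, 1 was higher (beside 2.41% of all genes) and 3 were lower (beside 4.26%). *Abcd3*, *Hadhb*, *Eci2* and *Ehhadh* passed there, and *Acadl*, *Eci1*, *Acaa1b*, *Acadvl* and *Acads* did not (limma adjusted p from 0.0744 to 0.181). The lower genes included *Hadhb*, *Eci1*, *Acadl* and *Acadvl* of the mitochondrial pathway, *Ehhadh* of peroxisomes and *Eci2*, whose product is found in both, and the higher genes were *Abcd3*, *Acaa1b* and *Acads*. With the background sets as a block, where each value is the *Trim28MommeD9/+* mean minus *Trim28+/+* replicate 1 alone, 0 of the 33 passed in either direction (2 at an unadjusted p under 0.05), as against 1 lower and 2 higher genes of all 7302 (0.0137% and 0.0274%). Median scaling over all probes, which moved the median of all genes to -0.19, gave 0 higher and 14 lower members (beside 0.479% and 34.6% of all genes), and scaling to the median of the probes detected on all arrays gave 5 and 5 (beside 13.3% and 9.74%). The small positive and negative folds below are therefore relative to the quantile normalization used.

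**Figure D1:**
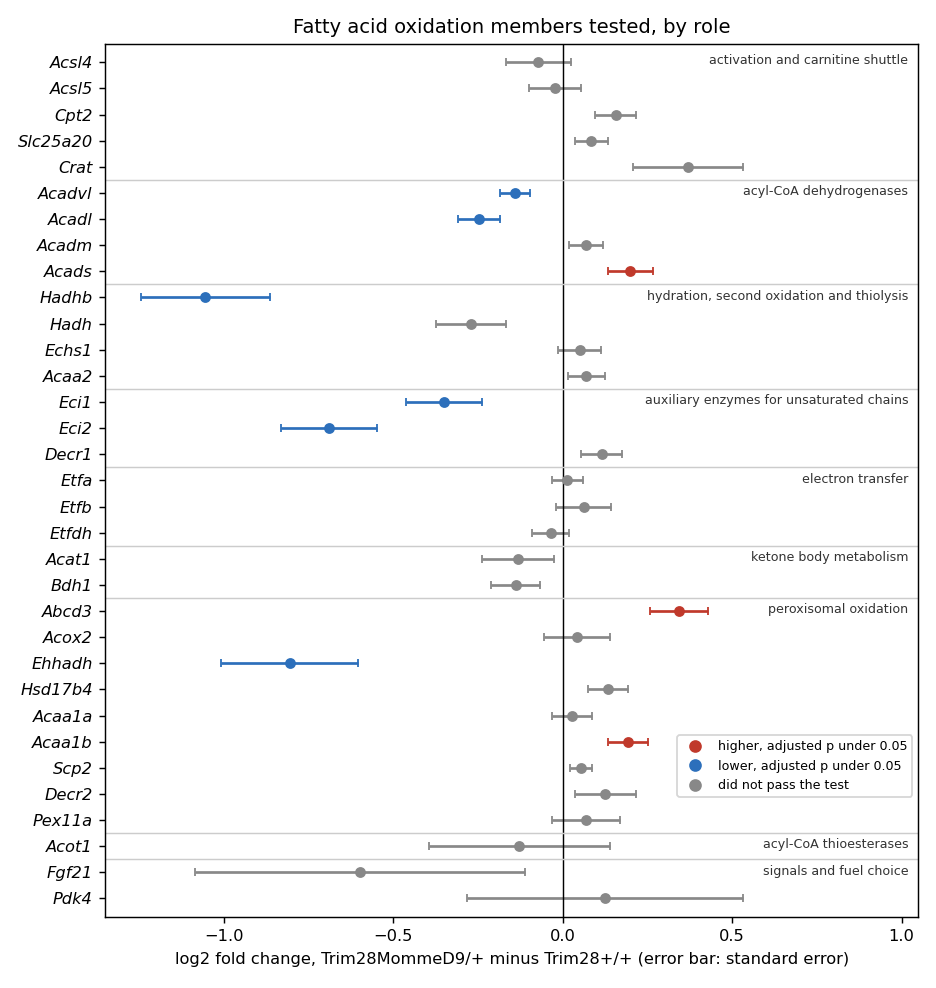
Log2 fold change (x axis, Trim28MommeD9/+ minus Trim28+/+) of the 33 genes tested, in groups by role, with the standard error from limma as bars. The 3 genes in red were higher and the 6 in blue lower at an adjusted p under 0.05, and Hadhb, at -1.05, lay farthest from 0.

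Fatty acid activation and the carnitine shuttle held no gene that passed the test, with 5 of 7 genes tested and log2 fold changes from -0.07 to 0.37. *Acsl5*, an acyl-CoA synthetase, ran from 13.22 through a median of 13.47 to 13.52 on the *Trim28MommeD9/+* arrays and from 13.13 through 13.44 to 13.66 on the *Trim28+/+* arrays, on the normalized log2 scale. The ranges overlapped almost fully (-0.02, standard error 0.08, limma adjusted p = 0.85). *Cpt2*, which re-forms acyl-CoA inside the mitochondrion, had a fold of 0.16 (adjusted p = 0.0692) with 3 of 7 *Trim28MommeD9/+* arrays above every *Trim28+/+* array, and it passed without *Trim28+/+* replicate 1 (adjusted p = 0.0378), with scaling to the median of detected probes and with array weights. *Slc25a20*, the acylcarnitine carrier of the inner membrane, had 0.08 (adjusted p = 0.225). *Crat*, carnitine acetyltransferase, had the largest positive fold of the members, 0.37 (standard error 0.16, adjusted p = 0.104), with arrays from 6.57 to 7.42 in *Trim28MommeD9/+* and from 6.14 to 7.06 in *Trim28+/+*, and it passed only with array weights among the settings tried. *Acsl4*, which prefers arachidonic acid, had -0.07 (adjusted p = 0.623).

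The 4 acyl-CoA dehydrogenases, which make the first oxidation and differ in the chain length they take, split in direction. *Acadvl*, for very long chains, ran from 11.34 through a median of 11.40 to 11.55 in *Trim28MommeD9/+* and from 11.48 through 11.53 to 11.67 in *Trim28+/+*. It was lower by a small amount (log2 fold change -0.14, standard error 0.04, limma adjusted p = 0.0289), with 6 of 7 *Trim28MommeD9/+* arrays below every *Trim28+/+* array and *Trim28+/+* replicate 1 the highest array of all, at 11.67. Against replicate 1 alone its fold was -0.25 and did not pass (adjusted p = 0.555, over alternatives from 0.00233 to 0.555). *Acadl*, for long chains, ran from 8.32 through 8.41 to 8.58 in *Trim28MommeD9/+* and from 8.52 through 8.60 to 8.93 in *Trim28+/+* (-0.25, standard error 0.06, adjusted p = 0.00974), and *Trim28MommeD9/+* replicate 1 was the only array of its genotype within the *Trim28+/+* range. Replicate 1 of *Trim28+/+* was at 8.60, with a fold of -0.19 against it alone, and the call was lost with the presumptive pairs (adjusted p = 0.0744, over alternatives from 0.000268 to 0.787). Its second probe had a fold of -0.05 (adjusted p = 0.715 among all probes), so the decrease was seen on 1 of 2 probes. *Acads*, for short chains, ran from 9.45 through 9.57 to 9.72 in *Trim28MommeD9/+* and from 9.19 through 9.42 to 9.65 in *Trim28+/+* (0.20, standard error 0.07, adjusted p = 0.0408). Only 3 of 7 *Trim28MommeD9/+* arrays lay above the highest *Trim28+/+* array, replicate 6, and *Trim28+/+* replicate 1 was at 9.47. Its second probe had 0.27 (adjusted p = 0.0848 among all probes). *Acadm*, for medium chains, had 0.07 (adjusted p = 0.331) with all arrays of both genotypes between 12.58 and 12.86. Single arrays decided the call of *Acadvl*, lost without any 1 of *Trim28MommeD9/+* replicates 3, 4, 5 and 6 (adjusted p from 0.0523 to 0.0647), and that of *Acads*, lost without *Trim28MommeD9/+* replicate 1, 4, 5, 6 or 7 or *Trim28+/+* replicate 5, 7, 8 or 9 (0.0522 to 0.0859).

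The largest difference among the members was in *Hadhb*, the thiolase subunit of the mitochondrial trifunctional protein, which carries out the last 3 steps for long chains together with *Hadha*. Its level ran from 8.94 through a median of 9.30 to 9.36 on the *Trim28MommeD9/+* arrays and from 9.21 through 10.22 to 10.97 on the *Trim28+/+* arrays. The fold was -1.05 (standard error 0.19, limma adjusted p = 0.0016), a level 2.08-fold lower. The only *Trim28+/+* array within the *Trim28MommeD9/+* range was replicate 1, at 9.21, and the next lowest, replicate 3, was above every *Trim28MommeD9/+* array. Without replicate 1 the fold was -1.18, and against replicate 1 alone it was -0.03 (adjusted p = 0.99), over alternatives whose adjusted p ran from 2.81e-05 to 0.99. The other enzymes of these steps did not pass. *Echs1*, the hydratase for short chains, had 0.05 (adjusted p = 0.609), and *Acaa2*, the thiolase for medium chains, had 0.07 (adjusted p = 0.378). *Hadh*, the dehydrogenase for medium and short chains, had -0.27 (adjusted p = 0.0648) on a probe near background, detected on 2 of 7 *Trim28MommeD9/+* and 8 of 9 *Trim28+/+* arrays. Its fold was -0.03 against *Trim28+/+* replicate 1 alone, and it passed without *Trim28MommeD9/+* replicate 7, *Trim28+/+* replicate 1 or *Trim28+/+* replicate 9 (0.0255 to 0.0417).

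Of the 3 auxiliary enzymes for unsaturated chains, the 2 enoyl-CoA isomerases, which move a double bond so that the chain can be shortened further, were lower. *Eci2* ran from 8.95 through a median of 9.16 to 9.57 in *Trim28MommeD9/+* and from 9.28 through 9.93 to 10.49 in *Trim28+/+* (-0.69, standard error 0.14, limma adjusted p = 0.00304, a level 1.61-fold lower). As with *Hadhb*, replicate 1 at 9.28 was the only *Trim28+/+* array within the *Trim28MommeD9/+* range, and against it alone the fold was -0.04 (adjusted p = 0.985, over alternatives from 8.83e-05 to 0.985). *Eci1* ran from 10.39 through 10.52 to 10.64 in *Trim28MommeD9/+* and from 10.48 through 10.77 to 11.41 in *Trim28+/+* (-0.35, standard error 0.11, adjusted p = 0.0326). Its *Trim28+/+* arrays were spread, with replicates 4 and 7 inside the *Trim28MommeD9/+* range and replicate 1 just above it at 10.69, and the call was lost without any 1 of *Trim28MommeD9/+* replicates 3 to 6 or *Trim28+/+* replicates 8 and 9 (0.05 to 0.0655). *Decr1*, the reductase for conjugated double bonds, had 0.12 (adjusted p = 0.178).

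**Figure D2:**
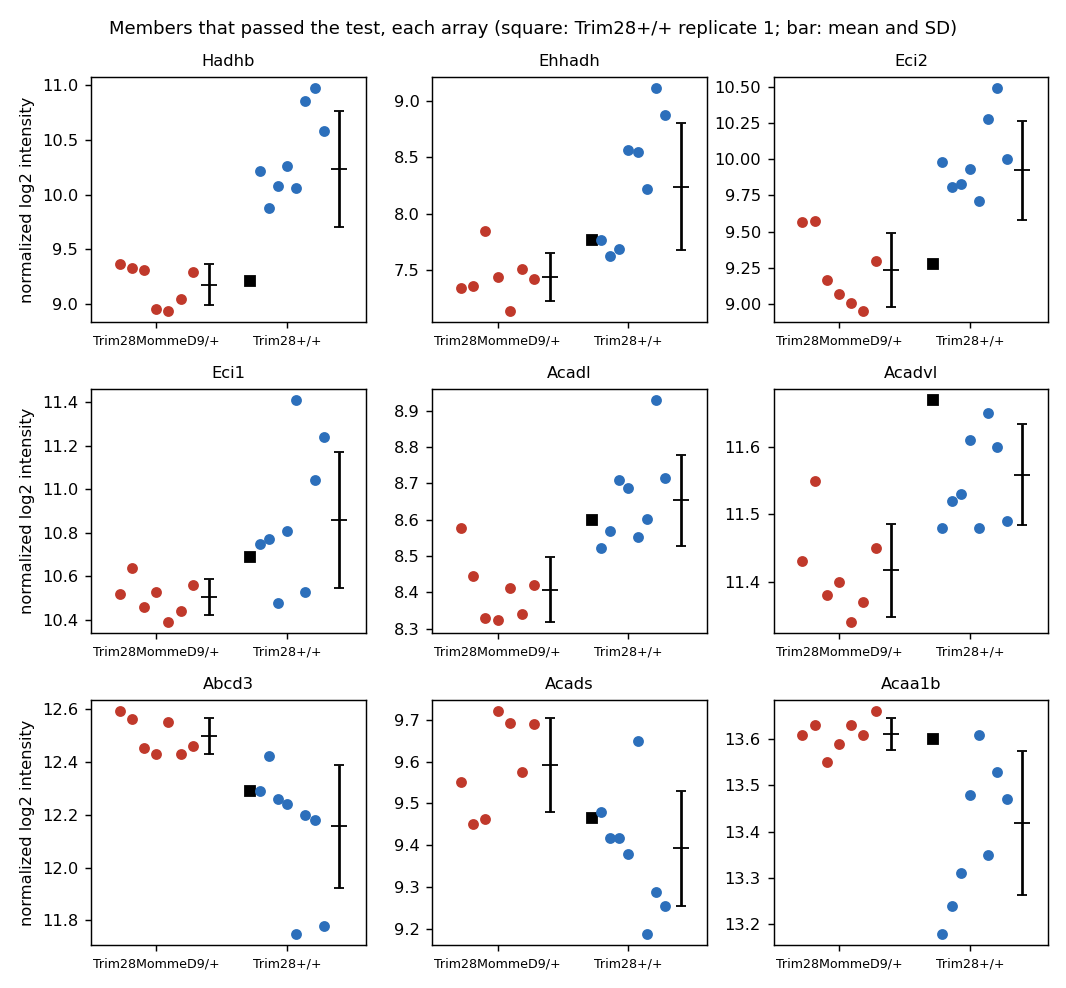
Normalized log2 intensity (y axis, a separate scale for each gene) on each array for the 9 members that passed the test, Trim28MommeD9/+ in red and Trim28+/+ in blue, with the mean and SD as bars. The square is Trim28+/+ replicate 1, the 1 wild-type array of the low-background set. It lay with the Trim28MommeD9/+ arrays for Hadhb, Eci2 and Acaa1b, for Acaa1b together with Trim28+/+ replicate 6. For Acadvl it was the highest of all arrays.

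On a scale where 0 is the mean of the other 8 *Trim28+/+* arrays and 1 is the *Trim28MommeD9/+* mean, *Trim28+/+* replicate 1 was at 0.97 for *Hadhb*, 0.95 for *Acaa1b* and 0.94 for *Eci2*. It was between these means for *Ehhadh* (0.62), *Eci1* (0.50), *Abcd3* (0.41), *Acads* (0.39) and *Acadl* (0.24). For each of these genes it also lay within the range of the other *Trim28+/+* arrays. For *Acadvl* it was at -0.98, on the far side of the other *Trim28+/+* arrays. This is 1 array, with no other *Trim28+/+* array in the low-background set. Without it all 9 genes passed (limma adjusted p from 2.89e-05 to 0.0373), with folds of -1.18 for *Hadhb*, -0.87 for *Ehhadh*, -0.77 for *Eci2*, -0.37 for *Eci1*, -0.25 for *Acadl* and -0.13 for *Acadvl*, and of 0.36 for *Abcd3*, 0.22 for *Acaa1b* and 0.21 for *Acads*.

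The letters upstream of the start are shown for *Hadhb* and *Eci2*. Their calls were kept in 10 of 11 alternative settings that use 1 probe per gene, all but the background sets as a block. The letters are also shown for *Acadvl*, a lower gene whose window holds AGGTCA, the core letters that nuclear receptors such as PPARA read. Each is the 250 bases before the gene's start on the gene's strand, 5′ to 3′ (RefSeq, GRCm38.p6), at chr5:30155003-30155252 for *Hadhb* (+ strand), chr13:34994145-34994394 for *Eci2* (- strand) and chr11:70015429-70015678 for *Acadvl* (- strand). Capitals mark GGGCGG, the core of the Sp1 box, or its complement CCGCCC, and AGGTCA.
Hadhb: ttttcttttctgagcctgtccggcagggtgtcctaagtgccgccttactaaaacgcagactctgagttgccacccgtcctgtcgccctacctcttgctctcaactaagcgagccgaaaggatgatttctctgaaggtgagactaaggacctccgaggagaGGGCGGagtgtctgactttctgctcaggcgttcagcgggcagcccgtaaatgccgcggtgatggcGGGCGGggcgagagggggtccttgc
Eci2: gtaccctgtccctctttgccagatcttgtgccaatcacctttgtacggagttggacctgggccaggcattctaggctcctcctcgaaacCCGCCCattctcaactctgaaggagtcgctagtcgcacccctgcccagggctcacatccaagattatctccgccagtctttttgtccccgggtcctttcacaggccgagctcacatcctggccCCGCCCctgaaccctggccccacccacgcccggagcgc
Acadvl: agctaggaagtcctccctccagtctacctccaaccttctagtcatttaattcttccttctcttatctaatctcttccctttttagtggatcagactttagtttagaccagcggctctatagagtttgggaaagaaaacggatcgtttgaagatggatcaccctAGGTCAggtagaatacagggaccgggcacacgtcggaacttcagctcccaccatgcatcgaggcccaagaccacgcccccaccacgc
A promoter was found for 32 of the 37 genes, and both strands of the 250 bases were searched in these and in all 32851 promoters of the table. Members were counted by gene, and all promoters by promoter, whether or not their gene was tested here. The shares were not compared with those of the genes tested. GGGCGG was in 19 of 32 (59.4%, beside 32.7% of all promoters), *Hadhb* and *Eci2* among them with 2 matches each, and not in that of *Acadvl*. AGGTCA was in 5 of 32 (15.6%, beside 14.0%), those of *Acadm*, *Acadvl*, *Cpt1a*, *Echs1* and *Scp2*. The element of PPARA with RXR is a direct repeat of AGGTCA with 1 base between the copies. Its exact letters were in 0 of 32 (beside 0.0335%), a share at which 32 promoters would rarely hold any. Imperfect copies were not searched. A match of letters is no binding site, and these windows say nothing of sites elsewhere.

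The 3 electron transfer genes did not pass on their main probes. *Etfa*, a subunit of the electron-transferring flavoprotein, had 4 probes, and they differed. On its main probe, the one with the highest mean, it ran from 12.87 through a median of 13.06 to 13.12 in *Trim28MommeD9/+* and from 12.91 through 12.98 to 13.15 in *Trim28+/+* (0.01, standard error 0.05, limma adjusted p = 0.862). On 2 other probes it was lower, with folds of -0.80 (standard error 0.14, adjusted p = 0.00131 among all probes) and -0.75 (standard error 0.13, adjusted p = 0.00135), while the remaining probe had -0.09 (adjusted p = 0.255). On the first of the lower probes the *Trim28MommeD9/+* arrays ran from 10.26 through 10.54 to 10.67 and the *Trim28+/+* arrays from 10.45 through 11.30 to 11.76. On the second they ran from 10.39 through 10.79 to 10.86 and from 10.67 through 11.48 to 11.86. On both, *Trim28+/+* replicate 1 was the only *Trim28+/+* array within the *Trim28MommeD9/+* range (10.45 and 10.67), and the folds against it alone were 0.04 and 0.01. Whether the probes read different transcripts was not tested, since their positions were not used here. *Etfb*, the other subunit, had 0.06 (adjusted p = 0.614), and *Etfdh*, which hands the electrons to ubiquinone, had -0.04 (adjusted p = 0.678).

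**Figure D3:**
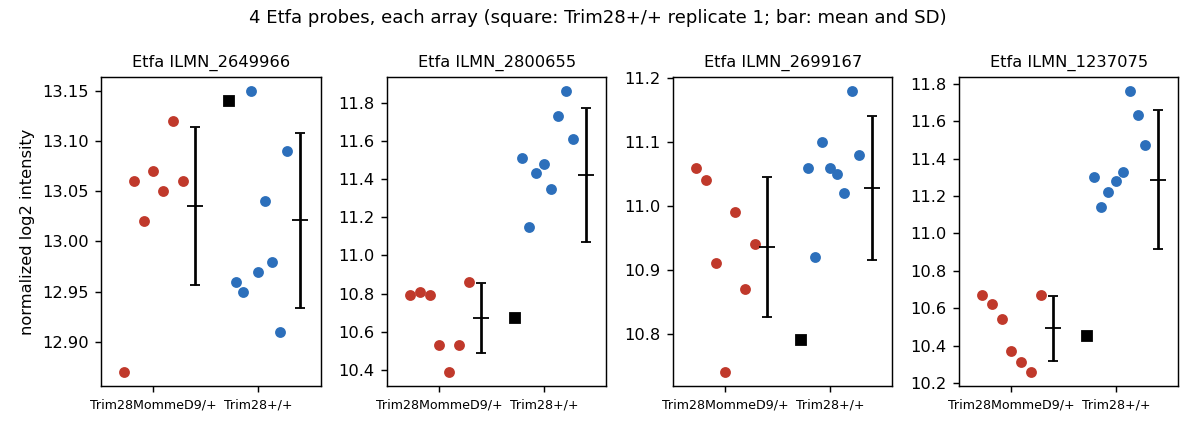
Normalized log2 intensity (y axis, a separate scale for each probe) on each array for the 4 probes of Etfa, Trim28MommeD9/+ in red and Trim28+/+ in blue, with the mean and SD as bars. The genotypes are apart on ILMN_2800655 and ILMN_1237075, except for Trim28+/+ replicate 1 (square), and overlap on the other 2 probes.

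Other members with several probes showed such differences too. In all, 12 members had more than 1 probe tested, with 30 probes. *Acaa2* had -0.34 (adjusted p = 0.0401 among all probes) on 1 probe, on which *Trim28+/+* replicate 1 was the lowest of all 16 arrays at 9.00, and folds from 0.07 to 0.13 that did not pass on its other 3. *Pex11a* had -0.46 (adjusted p = 0.0154) on 1 probe and 0.07 and -0.01, neither past the test, on its other 2. The lower probe was dim, with a mean of 5.95 over all arrays beside 9.95 and 9.73. On the lower probe *Trim28+/+* replicate 1, at 5.69, was the lowest wild-type array, and the fold against it alone was -0.0020. With every probe tested on its own, 3 of the 51 member probes were higher (beside 11.1% of all probes) and 10 were lower (beside 12.2%).

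In ketone body metabolism neither of the genes tested passed. *Bdh1*, which makes 3-hydroxybutyrate from acetoacetate, ran from 10.21 through a median of 10.25 to 10.32 in *Trim28MommeD9/+* and from 10.16 through 10.36 to 10.75 in *Trim28+/+* (-0.14, standard error 0.07, limma adjusted p = 0.164). The *Trim28MommeD9/+* arrays all fell inside the wider *Trim28+/+* range. *Acat1*, which joins 2 acetyl-CoA, had -0.13 (adjusted p = 0.382).

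Among the 9 peroxisomal genes, all tested, 2 were higher and 1 was lower. *Abcd3*, a membrane carrier that brings fatty acyl-CoA into the peroxisome, was the 1 member whose genotypes did not overlap (beside 1.29% of all genes without overlap and higher in *Trim28MommeD9/+*, and 1.11% lower). It ran from 12.43 through a median of 12.46 to 12.59 in *Trim28MommeD9/+* and from 11.75 through 12.24 to 12.42 in *Trim28+/+* (0.34, standard error 0.08, limma adjusted p = 0.00881, a level 1.27-fold higher). *Trim28+/+* replicates 6 and 9 were the lowest, and replicate 1, at 12.29, lay with the other *Trim28+/+* arrays, giving a fold of 0.21 against it alone (adjusted p = 0.853). Its call was also lost with median scaling over all probes (adjusted p = 0.343), and adjusted p ran from 0.000764 to 0.853 over the alternatives.

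*Ehhadh*, the bifunctional enzyme of straight chain and dicarboxylic acids and a well known PPARA target, ran from 7.14 through a median of 7.42 to 7.85 in *Trim28MommeD9/+* and from 7.62 through 8.22 to 9.12 in *Trim28+/+* (-0.81, standard error 0.20, limma adjusted p = 0.00948, a level 1.75-fold lower). It was lower than every *Trim28+/+* array on 6 of 7 *Trim28MommeD9/+* arrays, and *Trim28+/+* replicates 1 to 4 lay at the low end of their genotype, replicate 1 at 7.77. Against replicate 1 alone its fold was -0.33 (adjusted p = 0.921, over alternatives from 0.000584 to 0.921). *Hsd17b4*, the bifunctional enzyme of branched chains and bile acid precursors, had 0.13 (adjusted p = 0.109) and passed without *Trim28+/+* replicate 1 (adjusted p = 0.0488). The difference between the folds of *Ehhadh* and *Hsd17b4* was not tested.

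*Acaa1b*, a peroxisomal thiolase, ran from 13.55 through 13.61 to 13.66 in *Trim28MommeD9/+* and from 13.18 through 13.47 to 13.61 in *Trim28+/+* (0.19, standard error 0.06, limma adjusted p = 0.0269). Replicates 1 and 6 of *Trim28+/+* lay within the *Trim28MommeD9/+* range, and the call was lost without *Trim28MommeD9/+* replicate 5 or 7 (0.0507 and 0.0514). Its near-identical paralog *Acaa1a* had 0.03 (adjusted p = 0.771), and how far each probe reads the other gene's transcript was not tested. *Scp2*, whose longer product is the thiolase of branched chains, had 0.05 (adjusted p = 0.247), *Acox2*, the oxidase of bile acid precursors, had 0.04 (adjusted p = 0.782), *Decr2*, the peroxisomal reductase, had 0.13 (adjusted p = 0.33), and *Pex11a*, which promotes peroxisome division, had 0.07 on its main probe (adjusted p = 0.659).

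The thioesterase *Acot1* and the signalling genes *Fgf21*, a hormone that the liver releases in fasting, and *Pdk4*, the kinase that turns off pyruvate dehydrogenase, did not pass the test, and their arrays were far apart within each genotype. *Fgf21* ran from 6.73 through a median of 7.81 to 9.98 in *Trim28MommeD9/+*, a 9.50-fold range, and from 7.57 through 8.77 to 9.56 in *Trim28+/+*, a 3.98-fold range (-0.60, standard error 0.49, limma adjusted p = 0.392). By its SD within genotypes it was the 9th most variable of the 7302 genes, with 0.11% of genes above it. *Trim28MommeD9/+* replicates 1, 2 and 5 were at 6.73, 6.78 and 6.75, replicates 3 and 6 at 7.81 and 8.05, and replicates 4 and 7 at 9.96 and 9.98. The arrays of this gene thus fell on 3 levels in *Trim28MommeD9/+*, below, within and above the *Trim28+/+* range.

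*Pdk4* ran from 4.98 through a median of 7.17 to 7.38 in *Trim28MommeD9/+* and from 5.41 through 6.32 to 7.46 in *Trim28+/+* (0.12, standard error 0.41, limma adjusted p = 0.85), with 0.315% of genes more variable. *Acot1*, which frees fatty acids from acyl-CoA in the cytosol, ran from 9.22 through 10.02 to 10.53 and from 9.06 through 10.30 to 10.61 (-0.13, standard error 0.27, adjusted p = 0.762), with 1.53% of genes more variable, and how far its probe reads the near-identical *Acot2* was not tested. The same arrays were low for these 3 genes: *Trim28MommeD9/+* replicates 1, 2 and 5 and *Trim28+/+* replicates 2, 3, 4 and 7 were the lowest of their genotype. This order was singled out after the values were seen. It held for 3 of the 33 members (9.09%), and for 331 of all 7302 genes (4.53%). The *Trim28MommeD9/+* part of it held for 8 members (24.2%, beside 18.8% of all genes), *Crat*, *Ehhadh* and *Hadh* among them, and the *Trim28+/+* part for 5 (15.2%, beside 7.7%). By the correlation of their centred values *Trim28MommeD9/+* replicates 1 and 2, 3 and 6, and 4 and 7, and *Trim28+/+* replicates 2 and 3, 4 and 7, 5 and 8, and 6 and 9 are presumptive technical pairs, so arrays that move together may be the same mouse. The matching allowed only pairs and left *Trim28MommeD9/+* replicate 5 and *Trim28+/+* replicate 1 single. The fit with pairs took each single array as a mouse of its own. Whether either shares a mouse with a pair was not tested.

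**Figure D4:**
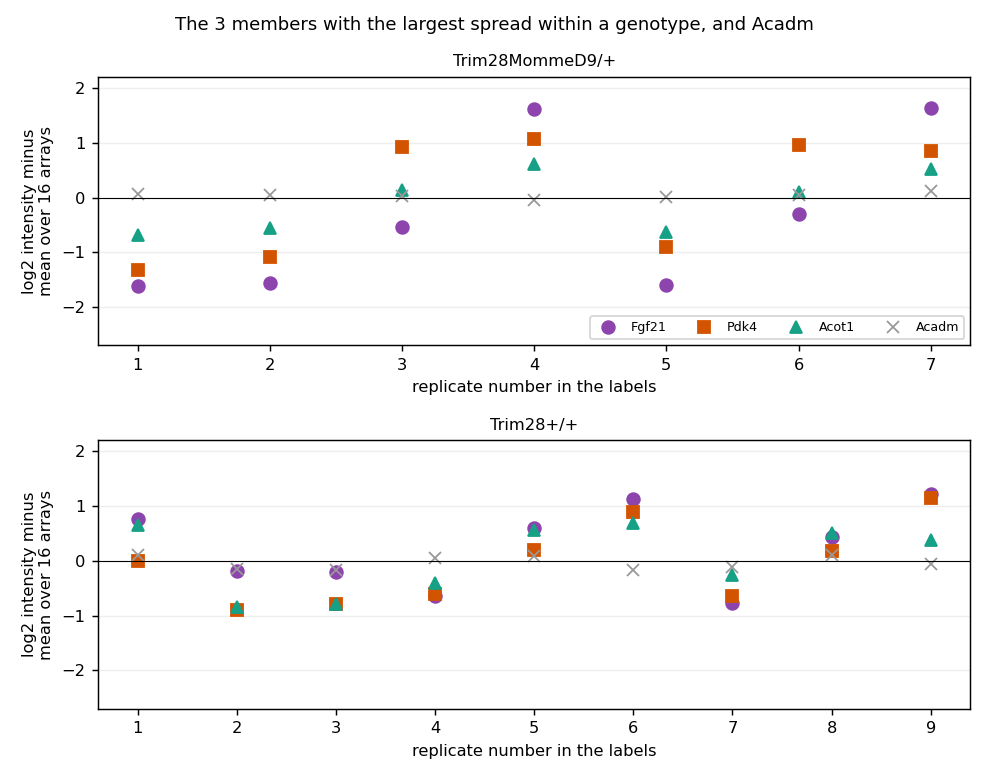
Log2 intensity minus the gene's mean over the 16 arrays (y axis) for Fgf21, Pdk4, Acot1 and, as a gene of small spread, Acadm, by the replicate number in the labels (x axis, which has no order), Trim28MommeD9/+ above and Trim28+/+ below. Trim28MommeD9/+ replicates 1, 2 and 5 and Trim28+/+ replicates 2, 3, 4 and 7 were lowest of their genotype for the first 3 genes.

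The 250 bases upstream of *Fgf21* and *Pdk4*, the members with the largest spread, are shown because *Fgf21* had the only TATAAA match among the 32 promoters (3.12%, beside 12.4% of all promoters). They lie at chr7:45615491-45615740 for *Fgf21* (- strand) and chr6:5496279-5496528 for *Pdk4* (- strand) (RefSeq, GRCm38.p6), with TATAAA and GGGCGG or its complement CCGCCC in capitals.
Fgf21: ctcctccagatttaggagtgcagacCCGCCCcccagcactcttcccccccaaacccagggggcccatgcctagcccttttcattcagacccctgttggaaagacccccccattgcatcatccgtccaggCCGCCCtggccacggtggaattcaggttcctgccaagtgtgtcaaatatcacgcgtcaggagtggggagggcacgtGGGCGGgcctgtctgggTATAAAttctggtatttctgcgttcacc
Pdk4: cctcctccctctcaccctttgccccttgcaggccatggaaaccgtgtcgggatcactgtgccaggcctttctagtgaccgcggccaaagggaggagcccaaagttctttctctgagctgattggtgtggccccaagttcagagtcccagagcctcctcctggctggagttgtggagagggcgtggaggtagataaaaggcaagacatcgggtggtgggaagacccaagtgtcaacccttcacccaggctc
The TATAAA of *Fgf21* begins 28 bases before the start. Neither window holds AGGTCA.

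The spread over arrays was the larger in *Trim28MommeD9/+* for 5 of the 33 members (15.2%), beside 29.6% of all genes. For the other 28 members, *Hadhb*, *Ehhadh* and *Eci1* among them, the SD was larger over the *Trim28+/+* arrays, which span both background sets.

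Beyond the members, 113 other genes of these and nearby pathways were listed and 80 were tested. The list includes regulators and PPARA targets and is not limited to fatty acid breakdown. Higher in *Trim28MommeD9/+* were 11 (13.8%, beside 10.4% of all genes) and lower were 12 (15%, beside 11.4%), which leaves 57 that did not pass. Among 17 tested genes listed under mitochondrial oxidation, not all of which act on fatty acids, 4 were higher and 5 lower. *Acadsb*, the dehydrogenase of short branched chains, ran from 6.82 through a median of 6.95 to 7.37 in *Trim28MommeD9/+* and from 7.06 through 8.23 to 9.03 in *Trim28+/+* (-1.16, standard error 0.20, limma adjusted p = 0.00145), with *Trim28+/+* replicate 1 its lowest wild-type array. *Mlycd*, which breaks down malonyl-CoA, the inhibitor of carnitine palmitoyltransferase, had -0.56 (standard error 0.11, adjusted p = 0.00254), again with replicate 1 the lowest *Trim28+/+* array. *Acsm5*, a synthetase of medium chains, had -0.39 (standard error 0.08, adjusted p = 0.00376). Against replicate 1 alone the folds were 0.0071 for *Acadsb*, -0.02 for *Mlycd* and -0.44 for *Acsm5*, and none passed.

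Among 23 tested genes of peroxisomal oxidation and biogenesis, 4 were higher and 4 lower. *Pxmp2*, a channel of the peroxisomal membrane, ran from 10.30 through a median of 10.42 to 10.63 in *Trim28MommeD9/+* and from 9.74 through 10.02 to 10.16 in *Trim28+/+*, without overlap (0.42, standard error 0.07, limma adjusted p = 0.00107). *Cat*, catalase, which removes the hydrogen peroxide of peroxisomal oxidation, had -0.68 (adjusted p = 0.00781), with *Trim28+/+* replicate 1 its lowest wild-type array, at 10.77 and inside the *Trim28MommeD9/+* range. Against replicate 1 alone the folds were 0.29 for *Pxmp2* and 0.01 for *Cat*, and neither passed. Of 28 tested genes of transcriptional control and PPARA targets, 2 were higher and 2 lower. *Rxrg*, a partner receptor, had 0.42 (standard error 0.07, limma adjusted p = 0.00145), without overlap. Its probe was dim, at 5.98 to 6.30 in *Trim28MommeD9/+* and 5.49 to 5.95 in *Trim28+/+*. *Hnf4a*, a nuclear receptor of hepatocytes, had -0.55 (standard error 0.12, limma adjusted p = 0.00406). *Trim28+/+* replicate 1 was the lowest wild-type array for *Hnf4a*, at 9.53 and inside the *Trim28MommeD9/+* range. Against it alone the folds were 0.33 for *Rxrg* and -0.14 for *Hnf4a*, and neither passed. *Ppara* itself was at 7.78 ± 0.35 (SD, n = 7 arrays) and 7.74 ± 0.34 (SD, n = 9 arrays), a fold of 0.05 (adjusted p = 0.856), and *Rxra* had 0.08 (adjusted p = 0.432). Of the 4 tested genes of ketone bodies, 1 was higher and 1 was lower, and 0 of 8 other thioesterases passed in either direction.

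The order of arrays seen for *Fgf21*, *Pdk4* and *Acot1* was also that of 5 of these 80 genes (6.25%, beside 4.53% of all genes): *Cyp4a14*, a fatty acid hydroxylase, *Ech1*, *Hilpda*, *Pxmp4* and *Slc16a6*. In 5 other genes, *Ppara*, *Ppargc1a*, *Ppargc1b*, *Lpin2* and *Bdh2*, the same arrays were the highest of their genotype (beside 2.74% of all genes, and 0 of the 33 members). Of these 10 genes only *Bdh2* passed the test of genotype (0.36, adjusted p = 0.0257 from limma), with a fold of 0.41 against *Trim28+/+* replicate 1 alone that did not pass.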

How the data were processed

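Total RNA of livers had been hybridized by the authors to Illumina MouseRef-8 v2.0 BeadChips. The authors deposited intensity values of 25697 probes on 16 arrays, neither background-subtracted nor normalized, with a detection p-value each, and a second table of linear intensity, made from the first by taking off a constant per array and rescaling. The paper names BeadStudio and GenomeStudio, without versions. The function neqc of limma 3.58.1 in R 4.3.3 made background-corrected, quantile-normalized log2 values (offset 16). Gene symbols came from the platform annotation, updated by Entrez identifier (23962 of 23978 annotated probes). A probe had to reach a detection p-value of less than 0.01 on 3 or more arrays (10291 did), and of several probes for a gene the brightest on average stood for it (7302 genes). The genotype contrast was fitted in limma (lmFit, then eBayes with an intensity trend), with Benjamini-Hochberg adjustment over all genes and a threshold of 0.05. The number of arrays limits the precision.

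The members, the lists of related and marker genes and the tests were chosen with earlier results of these data known. Genes given in full are the members that passed, in each role group without one the tested member with the highest mean, and up to 6 related genes with the smallest p. Members named otherwise complete the account of each role, and *Cat*, *Ppara*, *Rxra* and the genes of the array order were named after their values were seen. TATAAA and GGGCGG were added to the promoter search after the data were seen. Alternatives were other scalings, the filter, the scaled table, every probe on its own, a robust fit, array weights, a replicate block, presumptive technical pairs, the background sets as a block and leaving out each array. The model was tested on simulated data. Promoters were searched in Python 3.11.15 (NumPy 2.4.6, pandas 2.3.3), and figures drawn with Matplotlib 3.10.9.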

Additional observations from a re-analysis of the deposited data

Results flagged for a closer look

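Among 80 groups of arrays (40 genes, 2 genotypes), 3 held an array far from the others of its genotype by Dixon's test, where chance gives about 1 in 20. *Acadl* was at 8.93 on *Trim28+/+* replicate 8, with the next array at 8.71 (all log2 intensities). *Etfa* was at 12.87 on its main probe on *Trim28MommeD9/+* replicate 1, with the next at 13.02. *Acsm5*, a related gene, was at 10.17 on *Trim28MommeD9/+* replicate 5, with the next at 9.83.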

How the results depend on the processing

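Against 3 members higher and 6 lower, there were 0 and 14 with median scaling over all probes, 5 and 5 with scaling to the median of probes detected on all arrays, 1 and 4 with no filter on detection, 3 and 10 over all 51 probes, 5 and 6 with array weights, 1 and 2 with the replicate block, 1 and 3 with presumptive technical pairs, and 0 and 0 with the background sets as a block. Leaving out 1 array gave 1 to 5 higher and 4 to 7 lower. Related genes, 11 higher and 12 lower, gave 0 and 29 with median scaling, 3 and 7 with the replicate block, 3 and 6 with the pairs, 0 and 0 with the background block, and 9 to 14 and 12 to 13 leaving out 1 array. All genes, 761 higher and 831 lower, gave 35 and 2526 with median scaling, 162 and 379 with the replicate block, 176 and 311 with the pairs and 2 and 1 with the background block. They gave 375 and 1076 with the authors' scaled values, 968 and 711 with scaling to the median of detected probes, and 933 and 947 with array weights. These are of 7302 genes. With no filter 461 were higher and 717 lower of 16593 genes, 35 of which were members. Over all probes 1141 were higher and 1259 lower of 10291. Leaving out 1 array gave 502 to 981 higher and 664 to 974 lower.

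With median scaling *Acads* (-0.056, adjusted p = 0.577), *Acaa1b* (-0.025, 0.793), *Etfa* (-0.19, 0.0246) and *Scp2* (-0.21, 0.00341) turned negative, and the related gene *Acadsb* became 0.0071 (0.999) with the background block. Median scaling also moved the median of all genes from 0.05 to -0.19, and the background block compares with *Trim28+/+* replicate 1 alone. The cause was not tested. Of 11 settings with 1 probe per gene, the call was kept in 10 for *Hadhb* and *Eci2*, in 9 for *Abcd3* and *Ehhadh*, in 8 for *Acadl*, in 7 for *Eci1*, in 6 for *Acaa1b* and in 5 for *Acadvl* and *Acads*. The setting lost by *Hadhb* and *Eci2* was the background block, the only one that compares the genotypes within a background set. For these genes *Trim28+/+* replicate 1 lay near the *Trim28MommeD9/+* mean (0.97 and 0.94 on the scale above). The calls of *Hadhb*, *Eci2* and *Abcd3* were kept under the replicate block. Whether equal replicate numbers mark pairs was checked on deviations from the genotype means. Their correlation across genotypes ran from -0.394 to 0.479, and 2 of 7 numbers matched their own best, so no pairing was assumed. Detection limits *Cpt1a* and *Acot2*, whose probes did not reach the detection threshold on any array, and *Hadh*.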
